A study of Homo sapiens with 4 samples.

Results

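The transcriptome described here is that of NCI-H1703 cells carrying the vector, the cells against which the study set its overexpression cells. NCI-H1703 is an established human lung cancer cell line that cell collections list as a non-small cell lung carcinoma. The account rests on 2 of the 4 libraries of the series, vector A and vector B, chosen by their titles, which name pCDNA and a set letter. Of the 48162 genes in the deposited table, 23788 had a read in either vector library. The other group, also 2 libraries, held NCI-H1703 cells with raised EGFR-AS1, a long noncoding RNA, and is not compared here. Per the labels' protocols, both groups grew in RPMI medium with 10% fetal bovine serum and were passaged every 3 to 4 days. They were kept under hygromycin at 100 µg/ml, and strand-specific mRNA libraries were made by a sequencing provider. The labels give passages 20 to 30 for vector A and 20 to 31 for vector B. The labels do not say whether vector A and vector B came from separate cultures, nor whether the vector cells were a clone or a pool. The spread between them may therefore be technical.

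Lung carcinomas arise from airway and alveolar epithelium, and their subtypes are told apart by a few transcripts. Adenocarcinomas commonly keep the lung factor NKX2-1 and surfactant genes, and squamous carcinomas commonly keep TP63, SOX2 and basal keratins. Neuroendocrine tumours commonly carry secretory granule genes and neural factors such as NEUROD1. Growth of such cells commonly depends on receptor tyrosine kinases, surface proteins that bind growth factors outside the cell and signal through RAS and PI3K inside it. NCI-H1703 is known for amplification of PDGFRA and for loss of the chromatin remodelling proteins of SMARCA4 and SMARCA2.

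Vector A held 41518275 counted reads and vector B 32601449. Levels are given as CPM, the reads of a gene over all counted reads of its library, scaled to a total of 1e+06. Genes are compared with each other as TPM, which also divides by exon length. Values written with ± are the mean and SD of both libraries (n = 2). That SD leaves out the choice of exon length, and with the APPRIS principal transcript's length the TPM of 32.0% of expressed coding genes moved by more than 1.5 times. A gene is called expressed at 1 CPM or more in both libraries and silent at 0 reads in both. Of 19211 protein-coding genes, 11318 were expressed, or 58.9%, and 4279 were silent, or 22.3%. A count of 0 allows up to 0.0723 CPM in vector A and 0.0920 CPM in vector B, taken as 3 reads, which covers counting error only. At the upper end, 8893 coding genes reached 10 CPM in both libraries, 2236 reached 100 and 72 reached 1000. The median over all coding genes was 5.47 TPM, and over the expressed ones 27.4 TPM. Protein-coding genes took 97.8% of the reads in vector A and 97.9% in vector B.

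The most abundant messages were mitochondrial, iron-storing, glycolytic and cytoskeletal. By mean TPM the 15 leading coding genes were MT-CO1, FTL, MT-CO3, MT-CO2, MT-ND3, MT-ND4, GAPDH, MT-ATP6, HSP90AB1, TMSB10, FTH1, MT-ND2, MT-CYB, ACTB and MT-ND4L. MT-CO1, a subunit of cytochrome c oxidase, had 18039.6 TPM in vector A and 14754 TPM in vector B. FTL, the ferritin light chain, had 14782 TPM in vector A and 13621 TPM in vector B. FTH1, the ferritin heavy chain, had 7510.5 TPM in vector A and 6656 TPM in vector B. Ferritin stores iron as a shell of both chains, and the ratio of light to heavy chain message was 1.97 in vector A and 2.05 in vector B, but 1.21 with the principal transcripts' lengths. GAPDH, a glycolytic enzyme, had 8996 TPM in vector A and 9427 TPM in vector B, and the chaperone gene HSP90AB1 had 7601 TPM in vector A and 8298 TPM in vector B. FTH1, FTL, GAPDH and HSP90AB1 have processed copies elsewhere in the genome, so their counts depend on how reads matching several places were treated. The 5 noncoding genes with the highest mean CPM were SNHG29, RPS2P46, NORAD, NEAT1 and FGD5-AS1. SNHG29, a small nucleolar RNA host gene, had 618 CPM in vector A and 587 CPM in vector B. RPS2P46 had 456 CPM in vector A and 449 CPM in vector B, but it is a processed copy of the ribosomal protein gene RPS2 and the reads of the pair may be split between them. NORAD, a cytoplasmic RNA that binds PUMILIO proteins, had 308 CPM in vector A and 273 CPM in vector B. The mitochondrially encoded genes together took 2.54% of the reads in vector A and 2.21% in vector B.

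SFTPA1, SFTPB, SFTPC, NKX2-1, TP63 and SOX2 were silent or under 1 CPM. At 10 TPM or more stood 6 of 22 epithelial adhesion and polarity genes, 10 of 22 mesenchymal genes and 1 of 20 neuroendocrine genes. Of 16 alveolar and lung lineage genes, 6 were expressed, a share of 37.5% beside the 58.9% of all coding genes, and 4 were silent. SFTPA1, SFTPB and SFTPC, which encode surfactant proteins, and SLC34A2, the phosphate transporter of alveolar type II cells, had no read. NKX2-1, the lung-specifying transcription factor, had 14 reads in vector A and 6 reads in vector B. The expressed members were led by ETV5, an ETS transcription factor, at 62.2 ± 4.07 TPM, LAMP3, a lysosomal membrane protein of type II cells, at 46.2 ± 9.69 TPM, and ABCA3, their lipid transporter, at 19.8 ± 4.20 TPM. AGER, FOXA1 and GATA6 lay between 1.89 and 7.40 TPM. Of 15 airway genes, 2 were expressed, the mucin MUC1 at 6.15 ± 2.07 TPM and the ciliary motor gene DNAH5 at 3.71 ± 0.131 TPM, and 7 were silent, among them SCGB1A1, SCGB3A1, SCGB3A2, BPIFA1, BPIFB1 and CFTR. In bulk RNA, fewer cells of a type and less RNA per cell cannot be told apart.

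Most squamous genes were under 1 CPM. Of 17 squamous and basal genes, 3 were expressed, a share of 17.6% beside 58.9% of all coding genes, and 8 were silent. KRT5, KRT6A, KRT6B, KRT17, DSG3 and PKP1, which encode basal keratins and parts of the desmosome, had no read. TP63, the basal-cell master factor, had 4 reads in vector A and 2 reads in vector B, and SOX2, a factor often amplified in squamous carcinoma, had 1 read in vector A and 3 reads in vector B. PERP, a desmosomal membrane protein, was the exception at 82.00 TPM in vector A and 88.1 TPM in vector B. The other expressed members were NGFR at 9.06 ± 4.48 TPM and KRT15 at 3.17 ± 1.06 TPM.

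**Figure D1:**
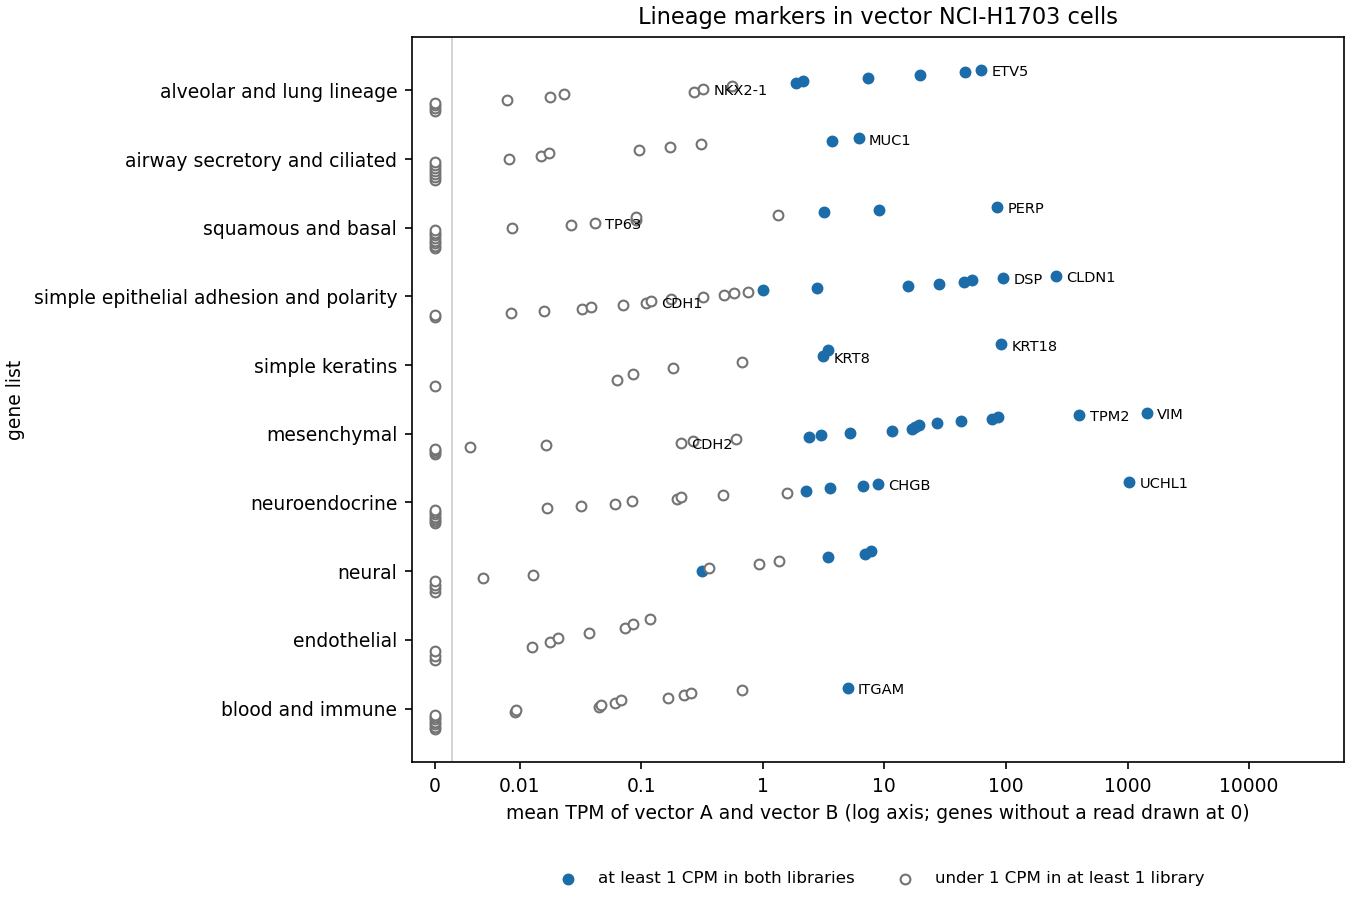
Mean TPM of vector A and vector B (log axis, genes without a read at 0) for the members of 10 lineage lists, one dot per gene and filled where the gene reached 1 CPM in both libraries. VIM and UCHL1 exceed 1000 TPM, while no endothelial marker and 1 of 18 blood markers is filled.

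Some junction genes stood high while most genes of epithelial adhesion and polarity were under 1 CPM. Of 22 such genes, 8 were expressed, a share of 36.4% beside 58.9% of all coding genes, and 2 were silent. CLDN1, a tight-junction claudin, had 233 TPM in vector A and 283 TPM in vector B. DSP, the desmosomal plaque protein, stood at 94.3 ± 3.19 TPM, TJP1, a tight-junction scaffold, at 52.2 ± 3.83 TPM, the desmosomal cadherin DSG2 at 45.1 ± 2.72 TPM and occludin, OCLN, at 27.96 ± 1.37 TPM. CDH1, the E-cadherin gene, had 8 reads in vector A and 6 reads in vector B, and EPCAM, an epithelial surface protein, had 2 reads in vector A and 3 reads in vector B. CLDN3 and the epithelial transcription factor gene GRHL2 had no read. Keratins 8 and 18 pair in simple epithelia, but KRT18 stood at 91.7 ± 9.24 TPM and KRT8 at 3.13 ± 0.214 TPM, a ratio of 28.6 in vector A and 29.9 in vector B, or 18.6 with the principal transcripts' lengths. Both have processed copies in the genome, so this ratio depends on the treatment of reads that match several places. KRT7, with 27 reads in vector A and 24 reads in vector B, was under 1 CPM, and KRT19 had 9 reads in vector A and no read in vector B.

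Of 22 mesenchymal genes, 13 were expressed and 4 were silent, a share of 59.1% expressed beside 58.9% of all coding genes. VIM, the intermediate filament protein of mesenchymal cells, had 1801 CPM in vector A and 1948 CPM in vector B, or 1437 ± 83.97 TPM. TPM2, a tropomyosin, stood at 400.2 ± 12.7 TPM, PDLIM7, a cytoskeletal adaptor, at 85.3 ± 7.73 TPM, and the surface protein THY1 at 76.9 ± 3.94 TPM. TWIST1, ZEB1, TWIST2 and SNAI1, transcription factors that repress epithelial genes, lay between 16.8 and 27.2 TPM. Yet CDH2, the N-cadherin gene, had 8 reads in vector A and 11 reads in vector B, and FN1, the fibronectin gene, had 63 reads in vector A and 27 reads in vector B. CDH11, SNAI2, PRRX1 and DES had no read. Neither of the classical cadherins by which epithelial and mesenchymal cells are told apart was therefore expressed. Of 12 cadherin genes listed, 2 were expressed, a share of 16.7% beside 58.9% of all coding genes. These were CDH24 at 16.02 ± 6.001 TPM and CDH4 at 5.29 ± 0.86 TPM. Another 7 were silent, where 22.3% of all coding genes were.

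Of 20 neuroendocrine genes, 5 were expressed, a share of 25% beside 58.9% of all coding genes, and 7 were silent. UCHL1, a neuronal deubiquitinase, had 1058 TPM in vector A and 1016 TPM in vector B. The next members were far lower, with the granule protein CHGB at 8.87 ± 2.09 TPM, SYP at 6.65 ± 1.63 TPM, SYT1 at 3.56 ± 0.662 TPM and ENO2 at 2.27 ± 1.25 TPM. NEUROD1, a factor of neuroendocrine cells, POU2F3, NCAM1, CALCA, GRP and PCSK1 had no read. Of 13 neural genes counted, 4 were expressed, led by MAP2 at 7.77 ± 1.43 TPM, and 7 reached 10 reads in both libraries. Few markers of other cell types were expressed. No endothelial gene of 10 was expressed, and their summed level was 0.348 TPM in vector A and 0.384 TPM in vector B. FLT1 among them reached 10 reads in both libraries. Of 18 blood and immune genes, 7 were silent and 1 was expressed, ITGAM at 4.998 ± 0.54 TPM. PTPRC, the pan-leukocyte gene, had no read. CD68 had 9 reads in vector A and 1 read in vector B, but 81.7% of its exons overlap a gene on its own strand, and the part of discarded reads in that count was not tested. The liver and gut list had 1 expressed member of 12, CDX2 at 3.59 ± 0.568 TPM, and 2 members at 10 reads in both libraries. The list of melanocyte, germ cell and muscle genes had 3 of 14, with POU5F1 at 3.98 ± 0.246 TPM, MITF at 4.02 ± 0.448 TPM and PMEL at 2.56 ± 0.0978 TPM.

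Receptor tyrosine kinase message was concentrated in a few genes. Of 57 receptor genes in the ERBB list and the list of other receptors, 31 were expressed and 6 were silent. Over all coding genes 58.9% were expressed and 22.3% were silent. The TPM of the 57 receptor genes summed to 1672. EPHA2 (ENSG00000142627), a receptor for ephrin-A ligands, had 274 TPM in vector A and 359 TPM in vector B. PDGFRA (ENSG00000134853), a receptor for PDGF-A and PDGF-C, had 353 TPM in vector A and 267 TPM in vector B. FGFR1 (ENSG00000077782), a fibroblast growth factor receptor, had 178 TPM in vector A and 216 TPM in vector B. Those 3 genes took 49.3% of the receptor TPM. EPHA2 and PDGFRA overlapped between the libraries, with EPHA2 higher in vector B and PDGFRA higher in vector A. Their order also depends on the gene length used. By the APPRIS principal transcript the means were 286 TPM for FGFR1, 284 TPM for PDGFRA and 206 TPM for EPHA2.

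EGFR, the epidermal growth factor receptor and the gene opposite EGFR-AS1, came next. It had 341 CPM in vector A and 381 CPM in vector B, or 108 TPM in vector A and 121 TPM in vector B. Next came EPHB4 at 85.2 ± 3.37 TPM, FGFR3 at 82.7 ± 30.5 TPM, the hepatocyte growth factor receptor MET at 66.1 ± 5.73 TPM and ERBB2 at 58.7 ± 3.30 TPM. With the principal transcripts' lengths ERBB2, at 82.5 TPM, stood above MET, at 43.4 TPM. FGFR3 had 104 TPM in vector A and 61.1 TPM in vector B, a range that takes in both EPHB4 and MET, so its place among them is not settled by 2 libraries. All 4 ERBB receptors were expressed, but ERBB3, the kinase-impaired partner of ERBB2, stood at 0.921 ± 0.333 TPM, and the ratio of ERBB2 to ERBB3 was 52.8 in vector A and 82.2 in vector B. ERBB4 stood at 13.9 ± 2.09 TPM. EGFR-AS1 (ENSG00000224057), transcribed from the strand opposite EGFR, had 1.42 CPM in vector A and 1.13 CPM in vector B. Because the strand setting of the counting is not given, its reads and those of EGFR cannot be told apart where the genes overlap. MERTK and TYRO3, members of the TAM family, were expressed at 52.03 ± 1.02 and 19.6 ± 2.13 TPM, while their relative AXL had 11 reads in vector A and 2 reads in vector B.

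**Figure D2:**
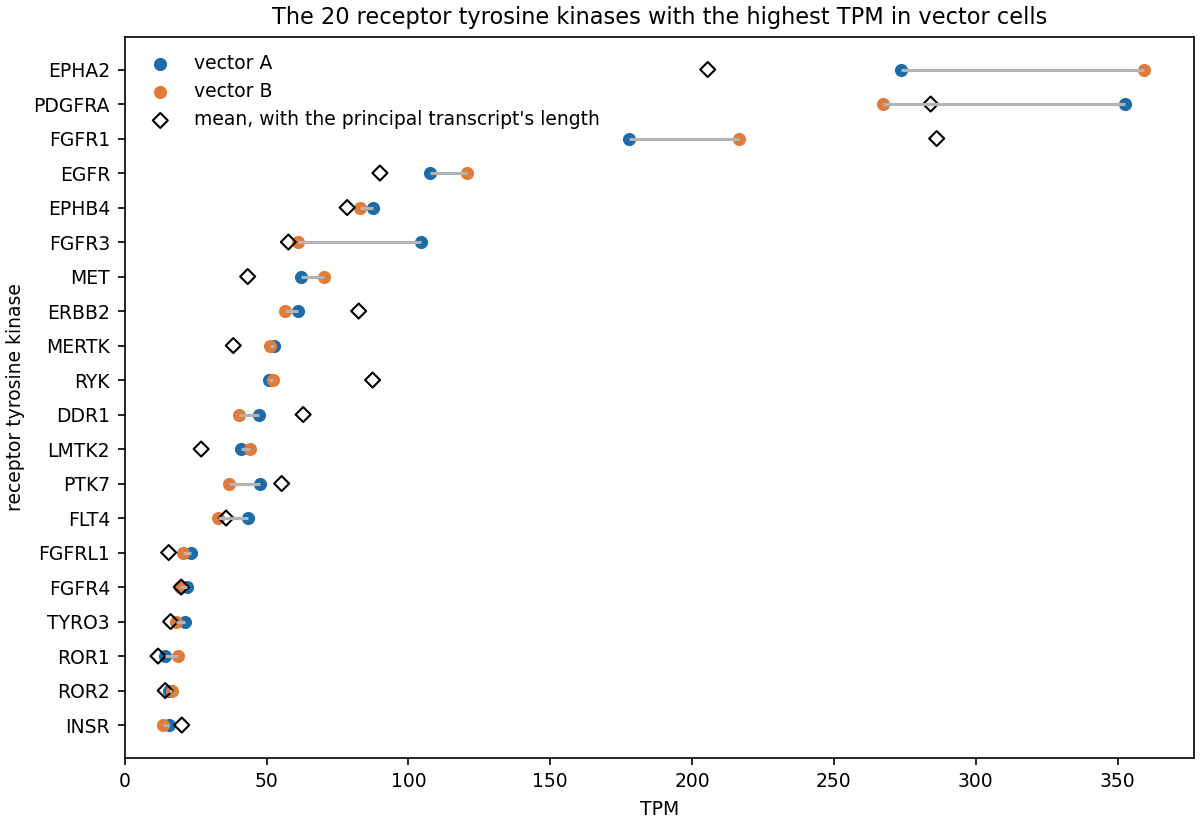
TPM in vector A and vector B for the 20 receptor tyrosine kinases with the highest mean, with the mean recomputed from the principal transcript's length as diamonds. EPHA2, PDGFRA and FGFR1 lie to the right of the rest by both lengths, and their order differs between circles and diamonds.

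The receptors closest to PDGFRA by family and by place were off. PDGFRB, the other PDGF receptor, had 12 reads in vector A and 7 reads in vector B against 36111 reads in vector A and 21414 reads in vector B for PDGFRA, a ratio of PDGFRA to PDGFRB of 2207 in vector A and 2243 in vector B per length. KIT and KDR are the next coding genes after PDGFRA on chromosome 4. KIT, the stem cell factor receptor, had 1 read in vector A and 1 read in vector B, and KDR, the main endothelial VEGF receptor, had none. On the other side GSX2 was silent, and CHIC2 and FIP1L1 were expressed at 57.8 ± 6.31 and 90.2 ± 1.45 TPM. Of the 20 coding genes nearest PDGFRA, 12 were expressed, beside 58.9% of all coding genes. The median over the 12 was 25.2 TPM, beside 27.4 TPM over all expressed coding genes. Besides KDR, the silent receptors were ROS1, NTRK2, NTRK3, EPHA3 and EPHA5.

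The start regions of the 3 neighbouring receptor genes are shown because PDGFRA was among the leading receptors while KIT and KDR had 2 reads between them. The sequences are RefSeq windows on GRCh38.p14 of 250 bases before to 50 bases after a start, with each CpG dinucleotide in capitals. PDGFRA has 2 such windows, and the one with more CpG is printed, chr4:54233710-54234009 on the plus strand. KIT is chr4:54657707-54658006 on the plus strand and KDR is chr4:55125546-55125845 on the minus strand.
PDGFRA: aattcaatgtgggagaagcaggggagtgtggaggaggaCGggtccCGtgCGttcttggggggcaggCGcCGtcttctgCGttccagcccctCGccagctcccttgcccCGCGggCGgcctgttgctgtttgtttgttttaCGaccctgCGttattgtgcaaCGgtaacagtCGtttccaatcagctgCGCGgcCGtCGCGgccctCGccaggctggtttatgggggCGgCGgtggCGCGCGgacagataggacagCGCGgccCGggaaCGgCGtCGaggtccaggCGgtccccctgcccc
KIT: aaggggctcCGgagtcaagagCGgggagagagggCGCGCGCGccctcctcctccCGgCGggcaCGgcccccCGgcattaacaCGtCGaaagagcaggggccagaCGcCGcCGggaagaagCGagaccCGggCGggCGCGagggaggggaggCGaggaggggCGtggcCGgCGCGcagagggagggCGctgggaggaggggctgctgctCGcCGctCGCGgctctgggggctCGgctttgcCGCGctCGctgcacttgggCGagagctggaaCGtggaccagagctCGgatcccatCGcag
KDR: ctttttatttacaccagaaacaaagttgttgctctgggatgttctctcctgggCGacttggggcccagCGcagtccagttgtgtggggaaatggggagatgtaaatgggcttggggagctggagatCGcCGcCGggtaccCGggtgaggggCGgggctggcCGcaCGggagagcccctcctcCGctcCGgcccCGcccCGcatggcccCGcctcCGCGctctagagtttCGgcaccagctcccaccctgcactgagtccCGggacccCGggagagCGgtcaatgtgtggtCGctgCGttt
The printed windows hold 32 CpG in PDGFRA, 38 in KIT and 22 in KDR. The other PDGFRA window, chr4:54229043-54229342 on the plus strand, holds 8.

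Among 30 ligand genes, 13 were expressed, a share of 43.3% beside 58.9% of all coding genes, and 8 were silent. PDGFC, a ligand of PDGFRA, had 417 TPM in vector A and 369 TPM in vector B. PDGFB, which binds both PDGF receptors, had 161 TPM in vector A and 158 TPM in vector B, and PDGFA stood at 11.1 ± 3.42 TPM. FGF2, a ligand of FGFR1, had 141 TPM in vector A and 152 TPM in vector B. PDGFC, PDGFB and FGF2, like PDGFRA and FGFR1, thus stood above the expressed coding median of 27.4 TPM. VEGFA, VEGFB, EPHA2, EGFR, MET and ERBB2 did too, and whether any ligand acted on its receptor was not tested. The EGFR ligands were low by comparison. HBEGF had 9.82 TPM in vector A and 18.1 TPM in vector B and TGFA stood at 1.35 ± 0.344 TPM, while EGF, AREG and EREG had no read. HGF, the ligand of MET, and IGF1 had none either, nor did NRG3, FGF5 and FGF9. NRG1 and NRG2, ligands of ERBB3 and ERBB4, stood at 15.5 ± 1.21 and 22.8 ± 1.51 TPM. VEGFA and VEGFB stood at 36.6 ± 6.30 and 39.1 ± 9.10 TPM.

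The machinery below the receptors was expressed nearly whole. Of 25 genes of the RAS, RAF and PI3K pathway, 24 were expressed, a share of 96% beside 58.9% of all coding genes. NRAS stood at 154 ± 12.2 TPM and HRAS at 98.1 ± 6.45 TPM. The adaptor SHC1 led the list at 787 ± 52.02 TPM, ahead of the phosphatase gene PTPN11 at 222 ± 23.6 TPM. BRAF, a kinase that RAS activates, stood at 3.76 ± 0.139 TPM. PIK3R2 was the one member under 1 CPM, but 87.2% of its exons overlap another gene on its strand, and the part of discarded reads was not tested.

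All 29 tumour suppressor genes were expressed, beside 58.9% of all coding genes, though at very different levels. CDKN2A, which encodes p16 and p14ARF, had 161 CPM in vector A and 159.9 CPM in vector B, or 147 ± 0.57 TPM. With the principal transcript's length it stood at 306 TPM. Its neighbour MTAP, often lost with it in cancer, stood at 13.9 ± 2.32 TPM and CDKN2B at 4.27 ± 0.358 TPM. RB1 had 91.8 CPM in vector A and 91.2 CPM in vector B, or 56.1 ± 0.0777 TPM. NF2, whose product merlin restrains YAP, had 42.7 TPM in vector A and 67.3 TPM in vector B. KEAP1, the adaptor that targets NRF2 for breakdown, stood at 137 ± 5.25 TPM, STK11 at 89.8 ± 16.6 TPM and CDKN1B at 143 ± 26.3 TPM. FHIT and SMARCA2 were the lowest, at 0.913 ± 0.216 and 0.409 ± 0.144 TPM.

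Of 25 subunits of the SWI/SNF chromatin remodelling complex, 23 were expressed, or 92% beside 58.9% of all coding genes. The catalytic pair was uneven. SMARCA2 (ENSG00000080503), one of the 2 alternative ATPases, had 100 reads in vector A and 47 reads in vector B, or 0.511 TPM in vector A and 0.307 TPM in vector B. SMARCA4 (ENSG00000127616), the other ATPase, had 86.4 CPM in vector A and 87.5 CPM in vector B, or 21.6 TPM in vector A and 21.97 TPM in vector B, and the ratio of SMARCA4 to SMARCA2 was 42.3 in vector A and 71.5 in vector B. With the principal transcript's length SMARCA4 stood at 36.7 TPM, so its place below or above the expressed coding median, 27.4 TPM by exon union and 26.6 TPM by principal transcript, depends on the length used. The core subunits SMARCC1, SMARCC2 and SMARCD2 stood at 183 ± 4.26, 109 ± 10.1 and 114 ± 5.68 TPM. SMARCE1 and SMARCD3 were low, at 7.75 ± 0.133 and 9.03 ± 2.66 TPM. ACTL6B, the neuron-specific subunit, was silent, and its common counterpart ACTL6A stood at 137 ± 4.74 TPM. Message does not show how much protein was present or whether it was intact.

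Of 24 transcription and chromatin regulators, 23 were expressed, or 95.8% beside 58.9% of all coding genes. HMGA1, a chromatin architectural protein, had 2948 TPM in vector A and 3325 TPM in vector B, rank 22 among all coding genes but rank 53 with the principal transcripts' lengths. MYC had 139 CPM in vector A and 161 CPM in vector B, or 198 ± 20.9 TPM, MYCL stood at 1.78 ± 0.555 TPM, and MYCN had no read. The AP-1 genes JUNB and FOSL1 stood at 387 ± 112 and 332 ± 97.9 TPM. TEAD4, YAP1 and WWTR1, which act together downstream of Hippo signalling, stood at 302 ± 8.24, 156 ± 5.82 and 178 ± 1.48 TPM. NSD3, a histone methyltransferase gene beside FGFR1, had 262 CPM in vector A and 254 CPM in vector B, or 66.9 ± 1.37 TPM. Of the 20 coding genes nearest FGFR1, 13 were expressed, beside 58.9% of all coding genes. The median over the 13 was 66.9 TPM, beside 27.4 TPM over all expressed coding genes. EIF4EBP1, a translation repressor, and ADAM9 led the 13 at 1039 ± 25.00 and 458 ± 60.9 TPM. The same median was 59.6 TPM around MYC, 50.6 TPM around EGFR and 41.7 TPM around SMARCA4. It was 25.2 TPM around PDGFRA and 17.6 TPM around CDKN2A.

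Genes of DNA replication and mitosis were uniformly on. All 24 cell cycle genes were expressed, beside 58.9% of all coding genes. Their median was 186 TPM, beside 27.4 TPM over all expressed coding genes. TOP2A, the S and G2 phase topoisomerase, stood at 462 ± 18.99 TPM, PCNA at 442 ± 22.3 TPM and MCM3 at 452 ± 24.5 TPM. CDK4 stood at 276 ± 25.5 TPM and CDK6 at 50.5 ± 4.36 TPM. Of the D-type cyclins that activate both kinases, CCND2 led at 194 TPM in vector A and 173 TPM in vector B, CCND1 had 71.1 TPM in vector A and 119 TPM in vector B and CCND3 stood at 42.6 ± 6.42 TPM. MKI67, the proliferation marker, stood at 88.8 ± 4.97 TPM.

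Every listed step of glycolysis was expressed, with uneven use of paralogous enzymes. All 23 genes of glycolysis and lactate handling were expressed, beside 58.9% of all coding genes. Their median was 90.1 TPM, beside 27.4 TPM over all expressed coding genes. LDHB, the lactate dehydrogenase chain typical of oxidative tissues, had 2174 TPM in vector A and 2449.8 TPM in vector B. LDHA, its muscle-type counterpart, had 363 TPM in vector A and 425 TPM in vector B. The ratio of LDHB to LDHA was 5.996 in vector A and 5.77 in vector B, but 4.43 with the principal transcripts' lengths. Of the exon bases of LDHB, 33.4% overlap a gene on its own strand, and the part of discarded reads was not tested. SLC2A3, a high-affinity glucose transporter, had 113 TPM in vector A and 67.2 TPM in vector B, and SLC2A1, the common one, stood at 7.52 ± 0.169 TPM. HK1 stood at 103 ± 6.31 TPM and HK2 at 11.4 ± 0.754 TPM, PFKP at 265 ± 10.7 TPM and PFKL at 67.3 ± 11.5 TPM. The lactate exporter SLC16A3 was at 0.67 ± 0.203 TPM beside 74.1 ± 5.13 TPM for SLC16A1. All 24 genes of the tricarboxylic acid cycle were expressed as well, led by MDH2 at 237 ± 5.17 TPM, OGDH at 210.4 ± 19.4 TPM and SDHA at 209 ± 14.9 TPM, with pyruvate carboxylase, PC, lowest at 3.96 ± 1.34 TPM. With the principal transcripts' lengths SDHA, at 454 TPM, stood above MDH2, at 241 TPM.

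Serine synthesis, amino acid import and lipid synthesis were strongly expressed. Of 19 genes of the pentose phosphate, serine and one-carbon pathways, 18 were expressed, or 94.7% beside 58.9% of all coding genes. PSAT1, the second enzyme of serine synthesis, had 979 TPM in vector A and 754 TPM in vector B. TYMS stood at 552 ± 15.3 TPM and MTHFD2 at 296 ± 37.5 TPM, while the folate enzyme gene ALDH1L1 was silent. SLC7A5, the leucine transporter, had 964 TPM in vector A and 801 TPM in vector B, and SLC1A5, a glutamine transporter, stood at 537 ± 89.3 TPM. GLS2, the liver-type glutaminase, had 6 reads in vector A and 5 reads in vector B. ASS1, which makes argininosuccinate for arginine synthesis, had 4 reads in vector A and no read in vector B, while ASL, the next enzyme, stood at 39.7 ± 0.356 TPM. All 27 cholesterol and fatty acid genes in the table were expressed, beside the same 58.9%. SCD, the fatty acid desaturase, stood at 655 ± 64.1 TPM, FASN, the fatty acid synthase, at 432 ± 59.7 TPM and ACLY at 427 ± 13.5 TPM.

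**Figure D3:**
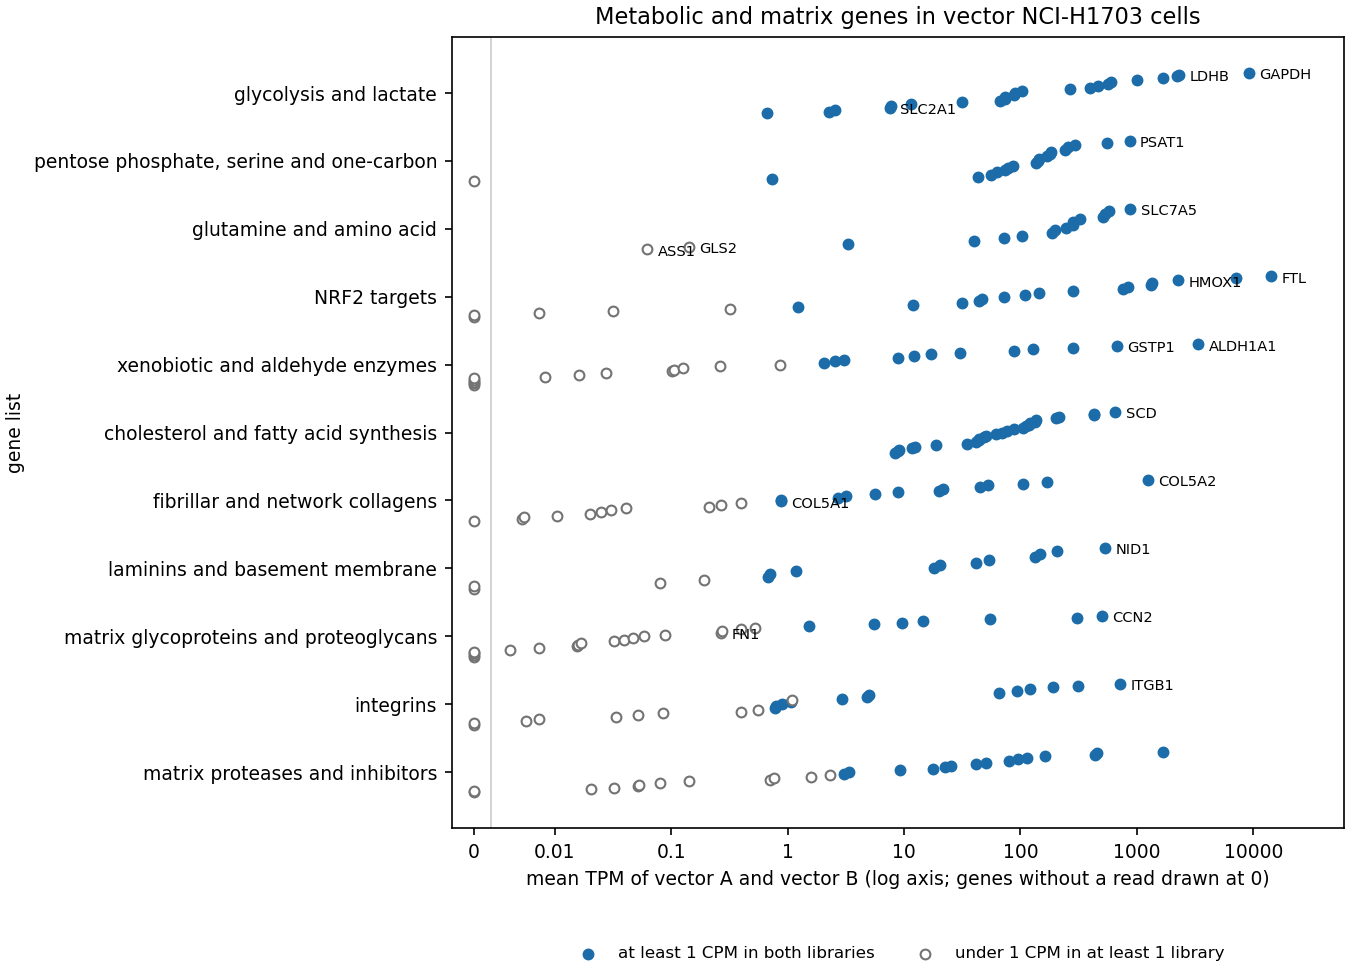
Mean TPM of vector A and vector B (log axis, genes without a read at 0) for the members of 6 metabolic and 5 matrix lists, one dot per gene and filled where the gene reached 1 CPM in both libraries. Nearly all dots of the first 3 lists are filled, and the matrix lists run from 0 to over 1000 TPM.

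Most antioxidant genes were expressed, over a wide range of levels. NRF2, encoded by NFE2L2, is the transcription factor that switches them on. Of 21 listed targets, 16 were expressed, a share of 76.2% beside 58.9% of all coding genes, 10 of them at 100 TPM or more, and 2 were silent. The median over the list was 72.9 TPM. Besides the ferritins they were led by HMOX1, a heme-degrading enzyme, at 2164 TPM in vector A and 2392 TPM in vector B, PRDX1, a peroxiredoxin, at 1353 ± 162 TPM and TXNRD1, thioredoxin reductase, at 1234 TPM in vector A and 1402 TPM in vector B. NQO1, a quinone reductase, had 878 TPM in vector A and 790.3 TPM in vector B, and SLC7A11, the cystine importer, stood at 286 ± 6.89 TPM. At the other end AKR1B10 and ME1 had no read, AKR1C2 had 1 read in vector A and no read in vector B and GPX2 had 1 read in vector A and no read in vector B. NFE2L2 itself stood at 105 ± 8.17 TPM.

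A promoter window of TXNRD1 is shown as that of a high member of this list. It is 1 of 2 RefSeq windows of the gene, chr12:104215529-104215828 on the plus strand of GRCh38.p14, with matches to TGACNNNGC, the antioxidant response core, in capitals on either strand.
TXNRD1: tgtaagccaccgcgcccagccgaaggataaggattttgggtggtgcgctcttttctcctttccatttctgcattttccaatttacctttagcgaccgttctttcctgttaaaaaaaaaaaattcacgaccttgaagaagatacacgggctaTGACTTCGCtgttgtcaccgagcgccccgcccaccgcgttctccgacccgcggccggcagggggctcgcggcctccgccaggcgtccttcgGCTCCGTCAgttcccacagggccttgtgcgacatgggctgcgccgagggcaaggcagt
The motif, read on both strands, occurs 2 times here and in 13.3% of 35116 RefSeq promoter windows. Of 14 listed targets with a window, 4 held it, GCLM, GPX2, ME1 and TXNRD1. That is a count of genes, which can have several windows, so it cannot be set against the share of windows. The targets without it include FTL and NQO1, which were also high members of the list. Of the 4 that held it, GCLM, at 109.9 ± 9.04 TPM, and TXNRD1 were expressed and GPX2 and ME1 were not. A match describes the letters and is not a site.

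Of 25 xenobiotic and aldehyde enzyme genes in the table, 12 were expressed, or 48% beside 58.9% of all coding genes, and 5 were silent. ALDH1A1, which makes retinoic acid from retinal and is used as a stem-like cell marker, had 2449 CPM in vector A and 2404 CPM in vector B, or 3392 TPM in vector A and 3343 TPM in vector B. Its rank among all coding genes was 20. GSTP1 stood at 676 ± 46.9 TPM and ALDH3A2, a fatty aldehyde dehydrogenase, at 285 ± 32.2 TPM. CYP2S1, GSTM1, GSTA1, UGT1A6 and CBR3 had no read, though 43.98% of the exons of UGT1A6 overlap relatives on its strand. All 14 stress response genes were expressed, led by CALR, HSPA5, ATF4 and HSP90B1, endoplasmic reticulum chaperones and the amino acid stress factor, at 1186 ± 40.1, 1048 ± 14.6, 956 ± 191 and 785 ± 0.424 TPM.

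Chains of collagens V and VI that assemble with each other stood at unequal levels. Of 24 collagen genes, 13 were expressed, a share of 54.2% near the 58.9% of all coding genes, and 1 was silent. COL5A2, a chain of collagen V, had 1268 TPM in vector A and 1213 TPM in vector B. COL5A1, the chain with which it assembles, had 1.16 TPM in vector A and 0.597 TPM in vector B, and the ratio of COL5A2 to COL5A1 was 1098 in vector A and 2030.3 in vector B. COL6A2 stood at 168 ± 26.4 TPM and COL6A1 at 20.1 ± 5.64 TPM, and COL6A3 had 7 reads in vector A and 1 read in vector B. Of the collagen I pair, COL1A1 stood at 2.69 ± 1.10 TPM and COL1A2 had no read in vector A and 1 read in vector B. COL4A1 and COL4A2, partners in the basement membrane that share a promoter region, were the even pair, at 52.3 ± 0.0447 and 44.9 ± 2.32 TPM. COL8A1 was silent. The enzymes that fold and hydroxylate collagen were expressed in 11 of 15 cases, led by P4HB at 559 ± 0.382 TPM, the collagen chaperone SERPINH1 at 219.9 ± 30.4 TPM and PLOD1 at 165 ± 9.20 TPM. Of the crosslinking oxidases, LOXL2 stood at 46.01 ± 5.11 TPM, LOX had 1 read in vector A and 1 read in vector B, and LOXL1 and LOXL4 had no read.

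Among 15 laminin and basement membrane genes, 11 were expressed, a share of 73.3% beside 58.9% of all coding genes, and 2 were silent. NID1, the linker protein nidogen, had 590.0 TPM in vector A and 471 TPM in vector B, while NID2 had no read. The laminin chains expressed above 100 TPM were LAMC1, LAMA5 and LAMB2, at 204 ± 4.89, 146 ± 41.4 and 134 ± 35.6 TPM. They are, in that order, a gamma, an alpha and a beta chain that are known to assemble together. LAMB3, a chain of the laminin under hemidesmosomes, was under 1 CPM, with 10 reads in vector A and 7 reads in vector B, and LAMA4 was silent. Of 25 matrix glycoproteins and proteoglycans, 7 were expressed and 4 were silent, a share of 28% expressed beside 58.9% of all coding genes, and 11 reached 10 reads in both libraries. CCN2 and CCN1, secreted proteins induced by YAP, stood at 500.2 ± 94.6 and 303 ± 18.6 TPM, and FBLN1 at 54.8 ± 4.68 TPM. SPARC had 2 reads in vector A and 1 read in vector B, and TNC, POSTN, DCN and HAPLN1 had no read.

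The beta-1 chain led the integrins. Of 23 integrin chains, 13 were expressed, a share of 56.5% near the 58.9% of all coding genes, and 2, ITGB6 and ITGB8, were silent. ITGB1, the shared beta chain, had 698 TPM in vector A and 733 TPM in vector B. Its laminin-binding partner ITGA6 had 249 TPM in vector A and 379 TPM in vector B, ITGAV stood at 189 ± 5.47 TPM, ITGA3 at 121 ± 11.97 TPM and ITGB5 at 92.7 ± 2.65 TPM. ITGB4, the partner of ITGA6 in hemidesmosomes, stood at 4.81 ± 1.70 TPM. Of 27 matrix protease and inhibitor genes, 15 were expressed, a share of 55.6% near 58.9% of all coding genes, and 2 were silent. PLAU, the urokinase plasminogen activator, stood at 3.04 ± 0.0148 TPM, and PLAT, the tissue-type activator, had 6 reads in vector A and 1 read in vector B. ADAM9 stood at 458 ± 60.9 TPM, the cathepsin CTSL at 434 ± 70.6 TPM and the membrane protease MMP14 at 41.5 ± 6.30 TPM, and MMP13 and TIMP4 were the silent members.

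Several gene families used in other tissues were nearly all silent. Of 350 olfactory receptor genes, 335 were silent, or 95.7% beside the 22.3% of all coding genes, and OR2W3 was the only one expressed. Of 92 keratin-associated proteins of hair, 87 were silent, as were 27 of 28 late cornified envelope and small proline-rich genes of skin, 44 of 45 defensins and all 18 PRAMEF genes, relatives of the expressed PRAME. Other families were less uniform. Of 16 killer-cell and leukocyte immunoglobulin-like receptors 12 were silent, of 27 taste receptors 11 were silent and of 10 pregnancy-specific glycoproteins 4 were silent, with none expressed in any of these families. Of 35 cytochrome P450 genes, 16 were silent and 7 were expressed. These families were chosen after the runs of genes under 1 CPM had been seen. How reads matching several family members were treated is not given, and its part in these counts was not tested. By contrast, 393 of 469 genes named as zinc finger genes and 82 of 85 ribosomal protein genes were expressed, beside 58.9% of all coding genes.

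Some genes under 1 CPM lay side by side in long runs. Coding genes under 1 CPM in both libraries fell, in annotation order, into 3546 runs, single genes included. Of these runs, 56 had 10 or more genes and held 1032 genes. The longest, on chromosome 11, had 60 genes from OR4B1 to APLNR and held 29 reads in vector A and 26 reads in vector B. The next was on chromosome 1, with 52 genes of the epidermal differentiation complex from S100A11 to S100A7, between the expressed S100A10 at 518 TPM and S100A6 at 286 TPM. A run of 49 keratin and keratin-associated genes lay on chromosome 17. A run of 35 genes on chromosome 21, from GRIK1 to KRTAP19-8, and a run of 31 on chromosome 4, from TMPRSS11E to JCHAIN, had no read in either library. The chromosome 4 run lies between the expressed YTHDC1 and UTP3 and holds UGT2B, casein, salivary and enamel genes. How long such runs would be by chance was not tested.

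Type I interferon genes lie beside MTAP and CDKN2A. Of 17 listed, 16 were silent, beside 22.3% of all coding genes, and none was expressed. IFNE had 9 reads in vector A and 17 reads in vector B. MTAP, CDKN2A and CDKN2B, in the same stretch, were expressed at the levels given above, so the interferon genes were off beside expressed neighbours.

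The HOX genes specify position along the body and lie in their clusters in the order in which they act. Of 39 listed, 20 were expressed, a share of 51.3% near the 58.9% of all coding genes. Another 6 were silent, where 22.3% of all coding genes were. The C cluster was highest, with 6 of 9 genes expressed and a sum of 287 TPM. HOXC8 had 106 TPM in vector A and 88.9 TPM in vector B, HOXC10 had 76.4 TPM in vector A and 71.9 TPM in vector B and HOXC9 had 76.6 TPM in vector A and 57.7 TPM in vector B. In the A cluster 7 of 11 genes were expressed, HOXA3 highest at 19.9 ± 2.91 TPM. HOXA7, HOXA9 and HOXA10 had no read, although HOXA6 on one side and HOXA11 on the other were expressed, at 4.73 ± 0.941 and 5.78 ± 1.88 TPM. HOXA6 lay close to the threshold of 1 CPM, with 1.76 CPM in vector A and 1.32 CPM in vector B. HOXA11 had 2.60 CPM in vector A and 4.14 CPM in vector B. HOXC11 and HOXC12 had no read between HOXC10 and HOXC13. In the D cluster 4 of 9 were expressed, led by HOXD9 at 44.7 ± 10.7 TPM and HOXD8 at 22.4 ± 3.26 TPM, and in the B cluster 3 of 10, led by HOXB9 at 9.51 ± 1.80 TPM. Of the exon bases of HOXD4, HOXD3 and HOXC5, 80.5%, 62.2% and 59.9% overlap a neighbour on the same strand, and the part of discarded reads in their counts was not tested.

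**Figure D4:**
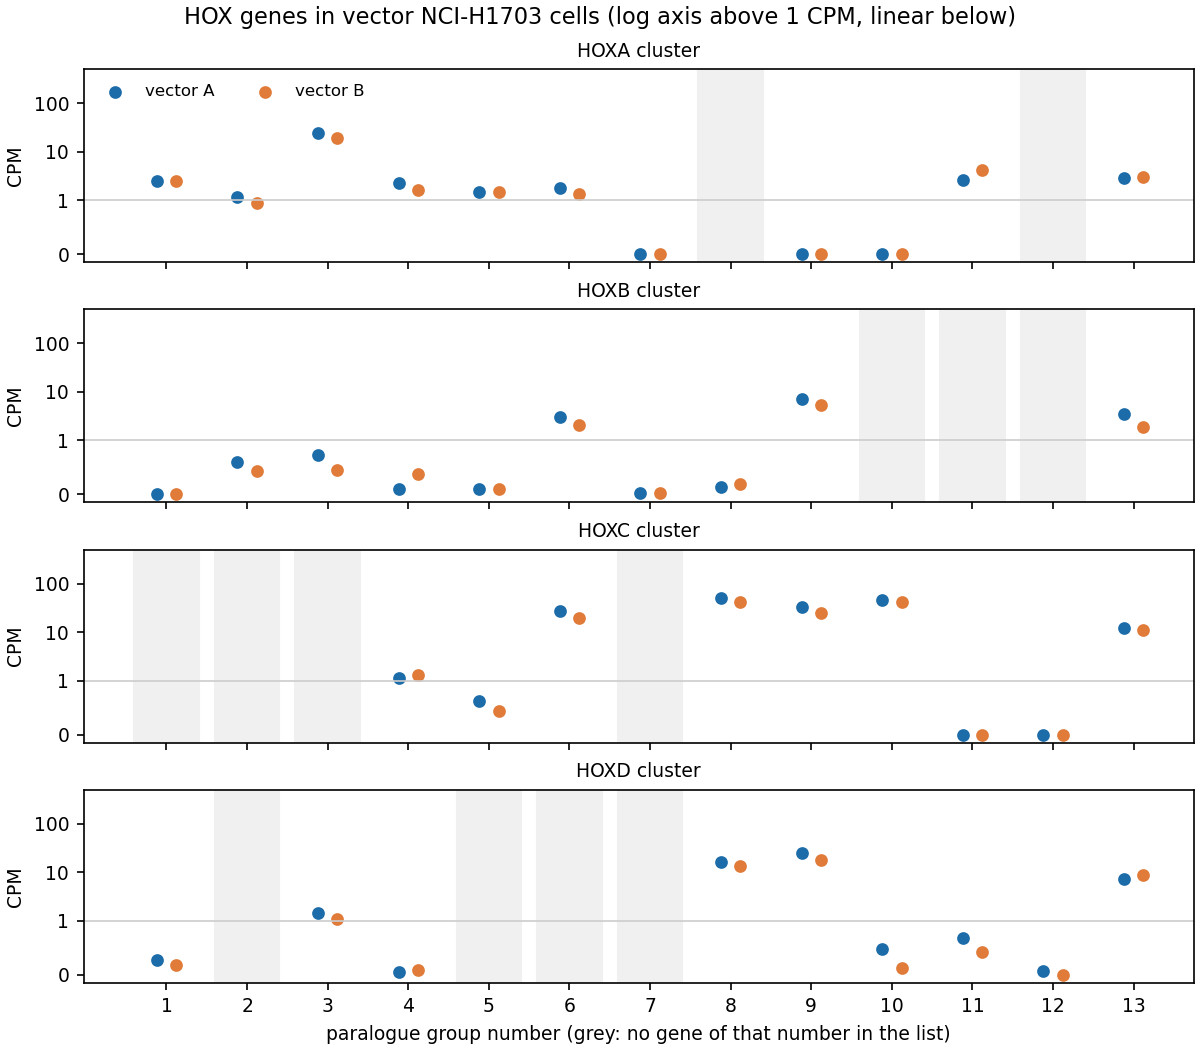
CPM in vector A and vector B for the 39 HOX genes by paralogue number, 1 panel per cluster, log axis above 1 CPM and linear below, with the line at 1 CPM. Genes at 0 stand between expressed neighbours in the A and C clusters.

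Cancer-testis antigens, normally restricted to germ cells, were on in a few copies and off in the rest. Of 27 in the table, 7 were expressed, a share of 25.9% beside 58.9% of all coding genes, and 16 were silent. MAGEA4 had 699 TPM in vector A and 723 TPM in vector B, MAGEA1 had 370.3 TPM in vector A and 495 TPM in vector B and PRAME stood at 126 ± 10.9 TPM. MAGEA6 stood at 147 ± 17.9 TPM and MAGEA3 at 27.3 ± 2.31 TPM, but they are near-identical copies and the split between them is uncertain. MAGEA8, MAGEA9, MAGEA11, MAGEA12, MAGEB1 and MAGEB2 had no read. How reads matching several MAGE genes were treated is not given, and its part in these counts was not tested.

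Vector A and vector B were close for most genes, and FOSB, EGR1 and FOS differed most among those of 10 CPM or more. Over 9440 genes averaging 10 CPM or more, the median gap was 1.10-fold either way. Past 1.5-fold, 338 genes were higher in vector A, or 3.58%, and 38 were higher in vector B, or 0.403%. With TMM factors in place of library totals the split was 225 and 70. With 1 library on each side these are differences between libraries and carry no test. Among 446 list members at that level, 22 were higher in vector A and 7 in vector B.

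The 3 largest gaps were in genes that serum and other stimuli switch on within minutes. FOSB, an AP-1 subunit, had 25.8 CPM in vector A and 2.52 CPM in vector B. EGR1, a zinc finger factor, had 326 CPM in vector A and 58.4 CPM in vector B, and FOS had 50.7 CPM in vector A and 9.66 CPM in vector B. JUN, the partner of FOS, had 152 CPM in vector A and 71.99 CPM in vector B. Each was higher in vector A, and the ratios of A to B were 10.3, 5.58, 5.25 and 2.12. The rest of the 10 largest gaps with a symbol, INHBE, APBB3, NOL3, SLC6A10P, PGPEP1, PIP5KL1 and MAMDC4, lay between 2.38 and 2.72. Of the 14 stress response genes, ATF3, DDIT3, DDIT4 and TRIB3, targets of the amino acid and endoplasmic reticulum stress pathway, were past 1.5-fold, all higher in vector A, and the other 10 were within it. ATF3 had 79.05 CPM in vector A and 39.4 CPM in vector B. The median ratio of A to B over that list was 1.30, beside 1.02 over all 9440 genes.

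The genes higher in vector B were led by EHD1, an endosomal trafficking protein, with 60.1 CPM in vector A and 128 CPM in vector B, the secreted ligand WNT5B with 36.6 CPM in vector A and 73.2 CPM in vector B and PLAUR, the urokinase receptor, with 16.9 CPM in vector A and 33.4 CPM in vector B. The others of the 10 were MAP2K3, HBEGF, TRAF1, NAV3, FHL2, POP1 and ARHGAP29. Among list members CCND1, FOSL1, ITGA6 and NF2 were also past 1.5-fold. CCND1 had 87.02 CPM in vector A and 146 CPM in vector B, and FOSL1, an AP-1 gene like FOS, had 126 CPM in vector A and 191 CPM in vector B. A level quoted above for these genes is therefore less certain than for most others. PDGFRA, EGFR, MYC, VIM and ALDH1A1 stayed within 1.5-fold.

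**Figure D5:**
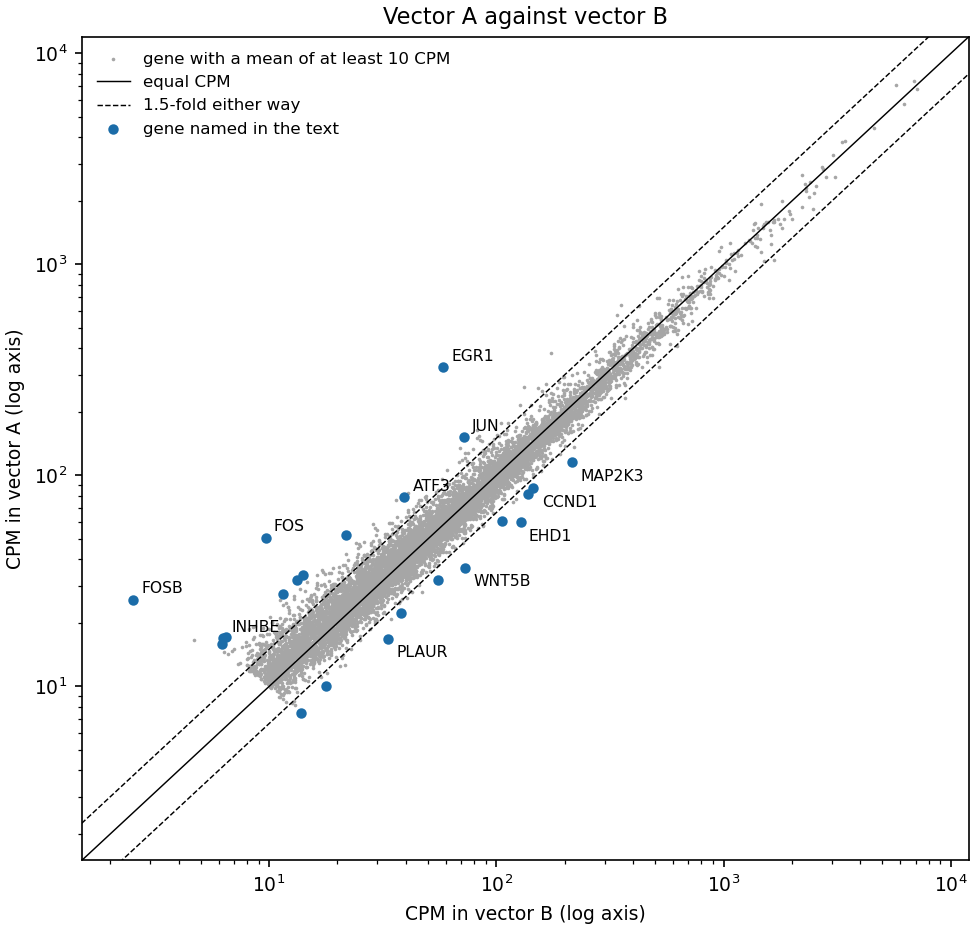
CPM in vector A against CPM in vector B (both axes log) for the 9440 genes averaging 10 CPM or more, with lines for equal CPM and 1.5-fold. FOSB, EGR1 and FOS stand apart above the cloud, and EHD1, WNT5B and PLAUR below it.

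The EGR1 promoter is shown because that gene had the widest gap among genes above 100 CPM on average. It is the RefSeq window chr5:138465229-138465528 on the plus strand of GRCh38.p14, with matches to the CArG box, the binding motif of serum response factor, in capitals.
EGR1: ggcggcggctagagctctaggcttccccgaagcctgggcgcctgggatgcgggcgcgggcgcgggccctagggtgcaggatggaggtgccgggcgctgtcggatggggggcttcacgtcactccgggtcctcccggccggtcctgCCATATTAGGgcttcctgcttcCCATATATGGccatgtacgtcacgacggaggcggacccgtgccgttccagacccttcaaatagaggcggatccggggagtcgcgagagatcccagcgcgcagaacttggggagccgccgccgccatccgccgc
The window holds 2 CArG boxes, a motif found on either strand in 1.29% of 35116 RefSeq promoter windows. Serum response factor is known to drive EGR1, FOS and FOSB when serum is added to cells. The match describes the letters of the window and says nothing of binding in these cells.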

How the data were processed

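Messenger RNA of 2 vector libraries of NCI-H1703 cells was described, with groups and letters from the sample titles. The deposited table holds counts of reads, whole and not normalized, for each Ensembl gene and library. The submitters' processing notes name STAR, HTSeq, DESeq2 and the build hg19, with no versions or roles. The annotation release, the strand setting and the treatment of reads matching several genes are named neither in the labels nor in those notes.

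CPM was computed over each library's own total, without factors, from the deposited counts. TPM used the union of a gene's exons in GENCODE release 29, which held 45342 of 48162 identifiers. Symbols were found for 33626. That annotation belongs to GRCh38, so no gene coordinates are printed from it. Promoter windows came from RefSeq. No test was run, since the vector libraries were not compared with others. The steps were tested on simulated data. Tools were Python 3.11.15, numpy 2.4.6, pandas 2.3.3, matplotlib 3.10.9 and, for TMM factors alone, edgeR 4.0.16 in R 4.3.3.

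The genes and the 45 lists, with 920 members, were chosen with earlier results of these data known. Genes were named by rule: the 15 leading coding and 5 leading noncoding genes, up to 6 leading and 6 silent members of each list, a set of lung cancer genes named whatever their values, and the 10 largest gaps between the libraries in each direction. Other members named in a sentence were chosen after their values were seen. Some genes that the rule names are not reported here. The 13 list members NEFL, PECAM1, GSTT1, ACACA, MMP12, CCL5, MAGEA2, CT45A1, BAGE, HULC, CCAT1, RMRP and RPPH1 are not analysed here. Alternatives were TMM factors, totals without mitochondrial genes, thresholds in reads or TPM, other gene lengths and each library left out.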

Additional observations from a re-analysis of the deposited data

How the results depend on the processing

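No paired analysis was possible because only the vector libraries were used and no groups were compared. The counts of expressed and silent genes and of expressed members over all lists together moved by less than 1.5 times under every alternative. So did the length of the longest run of genes under 1 CPM. Within single lists, at 10 reads in both libraries, the expressed members numbered 7 for neural genes and 2 for liver and gut genes. Matrix glycoproteins and proteoglycans had 11. Each was over 1.5 times the count at 1 CPM, and the counts of 40 other lists moved less. The endothelial and type I interferon lists had no member at 1 CPM and were left out of that check. FLT1, of the endothelial list, reached 10 reads in both libraries, at 0.241 CPM in vector A and 0.307 CPM in vector B. Protein-coding genes called expressed ran from 11283 at 1 TPM in both libraries to 12262 at 10 reads in both. Without vector A or vector B they numbered 11368 and 11587. Silent coding genes numbered 5367 at under 3 reads in each library. The longest run of neighbours had 49 genes when 0 reads in both was required. The count of gaps between the libraries did move. With genes of at least 1 CPM on average, 1173 were higher in vector A and 160 in vector B over a larger set of genes. With TMM factors the counts were 225 and 70. TPM depends on the length used. With the principal transcript, chosen after seeing the data, 32.0% of expressed coding genes moved by more than 1.5 times, and Spearman's rho across those genes, which are not independent, was 0.955. Of 29 named genes, 20 moved by more than 1 SD with the longest transcript and 22 with the principal one. The promoter composition by level was not run, since 77.9% of coding genes and 72.0% of silent ones had a RefSeq window, under the 80% needed.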

Other observations

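The message for presenting antigen by class I was present and that for class II was not. Of 17 antigen presentation genes, 12 were expressed, a share of 70.6% beside 58.9% of all coding genes, and 2 were silent. HLA-C, a heavy chain of class I, had 1245 TPM in vector A and 1212 TPM in vector B, although reads of it may be split with similar class I genes. B2M, the shared light chain, stood at 208 ± 8.65 TPM, the peptide transporter TAP1 at 226 ± 1.42 TPM and its docking protein TAPBP at 261 ± 13.96 TPM. HLA-G and the class II gene HLA-DRA had no read, and CIITA, the class II master regulator, had 21 reads in vector A and 15 reads in vector B. Of 21 checkpoint and cytokine genes in the table, 9 were expressed, or 42.9% beside 58.9% of all coding genes, and 4 were silent. LIF, an IL-6 family cytokine, had 258 TPM in vector A and 185 TPM in vector B, and NECTIN2, PVR and CXCL1 stood at 125 ± 1.93, 84.8 ± 11.98 and 79.2 ± 9.23 TPM. CD274, which encodes PD-L1, had 25 reads in vector A and 21 reads in vector B.

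Of 31 nuclear hormone receptors, 17 were expressed, a share of 54.8% near the 58.9% of all coding genes, and 5 were silent. The orphan receptors NR2F6 and NR2F1 led at 219.6 ± 6.80 and 177 ± 27.5 TPM, ahead of NR1H2 at 81.3 ± 4.63 TPM and the retinoid receptors RXRB and RARG at 68.9 ± 16.1 and 59.6 ± 9.51 TPM. The oestrogen and progesterone receptor genes ESR1 and PGR had no read, and RARB, the retinoic acid receptor gene often silenced in lung cancer, had none. Of 15 BCL2 family genes, 13 were expressed, with MCL1 at 318 ± 32.7 TPM, BAX at 177 ± 7.49 TPM, BCL2L1 at 99.8 ± 0.241 TPM and BCL2 at 9.86 ± 0.799 TPM. TERT, the catalytic subunit of telomerase, had 19 reads in vector A and 22 reads in vector B, while DKC1 and NOP10, proteins of the telomerase RNA complex that also serve other RNAs, stood at 352 ± 54.4 and 644 ± 7.08 TPM. TERC, the telomerase RNA, had 8 reads in vector A and 10 reads in vector B, and 80.96% of it overlaps another gene on its strand. The libraries were made for mRNA, and how well they capture TERC was not tested. Of 23 long noncoding RNAs counted, 16 were expressed, or 69.6% beside 27.0% of all genes, coding or not. They were led per length by NORAD, SNHG6, GAS5 and MALAT1 at 215 ± 17.8, 126 ± 4.29, 123 ± 11.6 and 96.8 ± 6.76 TPM. UCA1 had no read, and H19, HOTAIR and MEG3 had at most 2 reads in a library.

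MT-ATP8, which overlaps MT-ATP6 in the mitochondrial genome, stood at 25.4 ± 1.80 TPM beside 8156 ± 395 TPM for MT-ATP6, although the pair is cut from a shared transcript. Of the exon bases of MT-ATP8, 22.2% are shared with MT-ATP6. The labels give inserts of 250 to 300 bp, which can reach from one gene into the other. The part of reads discarded for matching both genes was not tested.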
